A study of Mus musculus with 34 samples.

Results

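Aminoacyl-tRNA synthetases are the enzymes that join each amino acid to its transfer RNA, the step that supplies the ribosome with charged tRNA. Their RNA was followed in B cells of mouse spleen, and 36 synthetase genes were described, taken by symbol from the 23812 gene entries of an RNA-seq table. Of these, 20 encode enzymes of the cytosol, including the Kars and Gars genes whose products are also known to serve mitochondria, and 16 encode enzymes of the mitochondria, whose symbols end in 2. All 36 symbols were found, each on 1 entry, and all 36 passed the filter on low values. The activated B cells (called aB by the submitters) were CD43- splenic cells of C57BL/6J mice, written C56BL/6J in the series text, aged 6 to 8 weeks and kept for 3 days in complete RPMI with lipopolysaccharide (LPS), whose concentration is 10 µg per ml in the treatment field of the labels and 10 µg per µl in the growth field. The resting B cells (rB), the control, were the CD43- fraction of splenic cells, for which the growth and treatment fields of the labels repeat the LPS culture, leaving their handling unclear. Resting B cells mostly lack CD43, a sialoglycoprotein of the cell surface, and LPS, from the outer membrane of Gram-negative bacteria, drives B cells to divide and to become antibody-secreting cells. RNA-seq had 2 activated and 2 resting samples, and maps of open chromatin, enhancer activity, histone marks and DNA contacts were used from activated cells alone. The titles of the samples of enhancer activity (STARR-seq) give differing hours. The 1 peak list of that assay does not separate these times, so its peaks cannot be given to one of them.

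A pair of separate translation systems works in each cell. The cytosolic synthetases charge tRNA for the proteins made from nuclear genes, while the mitochondrial ones are made in the cytosol from nuclear genes, imported, and serve the few proteins encoded by mitochondrial DNA. Several cytosolic enzymes sit together in the multisynthetase complex, held by the scaffold proteins Aimp1, Aimp2 and Eef1e1. Many cytosolic synthetase genes are known targets of Atf4, a transcription factor translated when amino acids are short or the endoplasmic reticulum is stressed, and Atf4 with a C/EBP partner is known to bind composite elements of the kind TGATGNAA, where N is any base.

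The resting samples carried RNA of other cell types, and the values stand here because they move with the groups. Summed over 6 macrophage markers, FPKM, the fragments of a transcript scaled to its length and to the mapped reads, was 0.358 and 0.710 in activated samples, against 327.6 and 369.5 in resting samples, with C1qa and C1qb listed at 0 in both activated samples. All 6 passed the filter on low values (1 FPKM in 2 or more samples) through the resting samples alone, so no test is read from them. The erythroid marker sum, over 5 entries of 4 symbols, was 11.9 and 5.08 in activated samples, against 716.7 and 5645 in resting samples. The 3 T cell markers had no value above 0 in the activated samples, and summed to 0.251 and 3.84 in resting samples, and the neutrophil sum was 0 and 0.261 in activated against 1.40 and 25.9 in resting samples. Cd79a, Cd79b, Ms4a1 and Pax5, which mark B cells, summed to 1530 and 1148 FPKM in activated samples and 2495 and 2898 FPKM in resting samples. Of 4 plasma cell markers, Prdm1, Igj and Xbp1 were called higher in activated cells and Sdc1 was not called. Over all tested genes 28.2% were called higher. The part of other cell types in the results below was not tested, and in bulk RNA fewer cells of a type and less RNA per cell cannot be told apart. All FPKM values of a sample summed to 285068 and 285129 in activated and 244602 and 287884 in resting samples. Over the tested genes Pearson's r of log2 values was 0.974 within activated and 0.981 within resting samples, and 0.744 to 0.790 across groups. Whether replicates are separate mice or cultures is not given, so the p-values cover only the spread among these samples, which could be technical.

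The promoters of 4 cytosolic synthetase genes with large differences in RNA are shown first, since each holds the TGATGNAA element on one strand or the other. Each line gives 250 bases before and 50 bases after the gene start, 5' to 3' on the gene's strand, from RefSeq on GRCm38.p6, with the element in capitals. Read on the other strand it appears as TTNCATCA.
Gars: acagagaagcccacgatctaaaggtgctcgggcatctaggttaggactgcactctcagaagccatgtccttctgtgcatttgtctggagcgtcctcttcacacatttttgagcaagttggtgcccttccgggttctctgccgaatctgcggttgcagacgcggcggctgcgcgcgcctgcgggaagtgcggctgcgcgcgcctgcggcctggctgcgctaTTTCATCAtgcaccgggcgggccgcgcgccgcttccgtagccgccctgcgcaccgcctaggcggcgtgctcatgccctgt
Yars: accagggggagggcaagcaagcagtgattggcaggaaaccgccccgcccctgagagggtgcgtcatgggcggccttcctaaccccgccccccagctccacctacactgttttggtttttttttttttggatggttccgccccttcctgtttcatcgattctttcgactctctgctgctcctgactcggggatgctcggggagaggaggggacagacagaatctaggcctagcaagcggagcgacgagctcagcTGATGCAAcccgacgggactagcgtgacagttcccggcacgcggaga
Aars: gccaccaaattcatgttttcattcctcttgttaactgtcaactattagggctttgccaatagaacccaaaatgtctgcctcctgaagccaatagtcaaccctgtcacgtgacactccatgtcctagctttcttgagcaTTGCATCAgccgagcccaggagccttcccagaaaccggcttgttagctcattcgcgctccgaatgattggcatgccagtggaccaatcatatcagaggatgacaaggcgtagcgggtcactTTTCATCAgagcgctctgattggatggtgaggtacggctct
Tars: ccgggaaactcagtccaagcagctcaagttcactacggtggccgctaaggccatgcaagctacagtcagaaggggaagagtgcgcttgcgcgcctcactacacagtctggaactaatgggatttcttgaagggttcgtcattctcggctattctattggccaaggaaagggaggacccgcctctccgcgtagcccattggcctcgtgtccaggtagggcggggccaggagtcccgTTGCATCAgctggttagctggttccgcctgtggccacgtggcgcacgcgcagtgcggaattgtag
The windows lie at chr6:55037751-55038050, plus strand (Gars, for glycine), chr4:129189653-129189952, plus strand (Yars, for tyrosine), chr8:111033592-111033891, plus strand (Aars, for alanine) and chr15:11399609-11399908, minus strand (Tars, for threonine). Counted from the first base of the gene as 1, the element began at base -30 in Gars, at base 4 in Yars, at bases -112 and 10 in Aars and at base -15 in Tars.

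RefSeq promoters were at hand for 26 of the 36 genes, 12 cytosolic and 14 mitochondrial. TGATGNAA occurred in 5 of the 12 cytosolic promoters (41.7%), those of Aars, Gars, Iars, Tars and Yars, and in 0 of the 14 mitochondrial ones. Of all 27025 genes with a RefSeq promoter 4.51% held it, and of the 8118 of them tested for RNA 2.8% did. Counting the part before the gene start alone, 3 of 12 cytosolic promoters held it, because the matches of Iars and Yars lie after the start. The 5 cytosolic genes with the element had log2 differences in RNA, activated minus resting, of 1.78 to 2.56 with a median of 2.40, and the 7 without it had 0.51 to 1.93 with a median of 1.18. The other 8 cytosolic genes (Cars, Hars, Lars, Mars, Nars, Rars, Vars and Wars) are in neither group, among them Nars and Cars with large differences of 2.42 and 2.07. These are descriptions of letters in a window, and binding was not measured.

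CACGTG, the E-box bound by Myc, Usf and Tfe proteins among others, was found in 4 of 12 cytosolic promoters (33.3%; Aars, Farsb, Iars and Tars) and in 1 of 14 mitochondrial promoters (7.14%; Ears2), against 8.09% of all genes and 12.4% of tested genes. CCGGAA, a core of ETS factor sites, was found in 4 of 12 cytosolic promoters (33.3%) and in 7 of 14 mitochondrial promoters (50%), against 16.7% of all genes and 34.2% of tested genes. TGACGTCA, the cyclic AMP response element, was found in 0 of the 26, against 3.77% of tested genes. All motifs were searched on both strands, and none of the 4 contains another.

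RNA of the cytosolic synthetases was higher in activated cells for nearly the whole family. Of 20 genes 19 were called higher and 0 lower by limma at an adjusted p under 0.05, where 28.2% of all 10863 tested genes were called higher and 26.2% lower. A rise of at least 2-fold on FPKM + 1 was called for 16 of the 20, against 14.0% of all tested genes. Both activated samples lay above both resting samples in all 20 genes, which held for 41.5% of tested genes, while the reverse held for 39.1%. The median log2 difference was 1.57, with a range of 0.42 to 2.56, against a median of 0.03 over all tested genes. Summed over the 20 genes, FPKM was 991.9 and 1243 in activated samples and 352.8 and 372.4 in resting samples, and the activated samples were both high. The median log2 difference of the 20 genes was 1.59 without resting replicate 2, in which the erythroid sum was higher, and 17 were then called higher. Wherever 1 sample is left out, its group keeps a single sample, the spread comes from the other group alone, and the lone sample is assumed to vary like that group.

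Gars and Yars showed the largest differences. Gars, which charges glycine and lies on mm9 at chr6:54987994-55029498, had 88.5 and 116.8 FPKM in activated samples, against 15.7 and 17.2 FPKM in resting samples. The fold was 5.89 on FPKM + 1 (log2 difference 2.56 ± 0.20, standard error, limma adjusted p = 0.000158). Yars, for tyrosine, at chr4:128867038-128896851, had 49.9 and 66.9 FPKM in activated samples and 9.01 and 8.97 FPKM in resting samples. For this gene the log2 difference was 2.56 ± 0.19 (limma adjusted p = 0.000128). In both genes the resting samples nearly coincided and the activated samples lay far above them.

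Nars, the enzyme for asparagine, was the most abundant cytosolic member in activated cells, with 129.0 and 161.9 FPKM there against 25.8 and 26.5 FPKM in resting samples, a log2 difference of 2.42 ± 0.19 (limma adjusted p = 0.000185). Aars, for alanine, at chr8:113557866-113580770, had 47.4 and 60.5 FPKM in activated samples and 9.77 and 8.91 FPKM in resting samples (log2 difference 2.40 ± 0.18, limma adjusted p = 0.000132). Cars, for cysteine, at chr7:150743134-150785995, was the lowest cytosolic member in resting cells, with 23.96 and 29.5 FPKM in activated and 5.84 and 5.34 FPKM in resting samples. Its log2 difference was 2.07 ± 0.16 (limma adjusted p = 0.000172). Tars, for threonine, at chr15:11313417-11329413, had 51.2 and 72.6 FPKM in activated samples and 13.3 and 16.7 FPKM in resting samples, where the pair of activated samples lay further apart than those of Cars (log2 difference 1.97 ± 0.22, limma adjusted p = 0.000624).

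A middle group of 11 genes had log2 differences from 0.97 for Qars to 1.93 for Eprs. Eprs, a fused enzyme for glutamate and proline, averaged 62.8 ± 9.61 FPKM in activated and 15.6 ± 0.708 FPKM in resting cells (SD, n = 2 each). Lars (leucine) and Iars (isoleucine) had log2 differences of 1.84 and 1.78, and Kars (lysine), with a mean of 80.3 FPKM in activated and 25.9 FPKM in resting cells, had 1.59. Mars, which also charges the initiator tRNA with methionine, had 1.55, Sars (serine) 1.52 and Hars (histidine) 1.30. Rars (arginine), Farsb (the beta chain for phenylalanine) and Dars (aspartate) had 1.25, 1.18 and 1.15. All 11 were called higher, with limma adjusted p-values no larger than that of Farsb, 0.00552.

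The smallest differences were in Wars, Farsa and Vars. Wars, for tryptophan, had 26.0 and 33.9 FPKM in activated samples and 18.4 and 21.2 FPKM in resting samples (log2 difference 0.56 ± 0.19, limma adjusted p = 0.0401). Farsa, the alpha chain of the enzyme whose beta chain is Farsb, had 22.4 and 28.0 FPKM in activated and 16.9 and 17.8 FPKM in resting samples (log2 difference 0.51 ± 0.17, limma adjusted p = 0.0407). The 2 chains of phenylalanyl-tRNA synthetase thus stood at means of 25.2 FPKM (Farsa) and 37.6 FPKM (Farsb) in activated cells, and at 17.4 FPKM (Farsa) and 16.0 FPKM (Farsb) in resting cells. Vars, for valine, was the one cytosolic gene that was not called, with 71.6 and 83.1 FPKM in activated samples, against 58.1 and 56.7 FPKM in resting samples (log2 difference 0.42 ± 0.18, limma adjusted p = 0.0949). It had the highest resting level of all 36 genes, at a mean of 57.4 FPKM. The calls of Wars and Farsa were lost under 5 and 6 of 11 alternative settings, with adjusted p reaching 0.224 and 0.198.

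**Figure D1:**
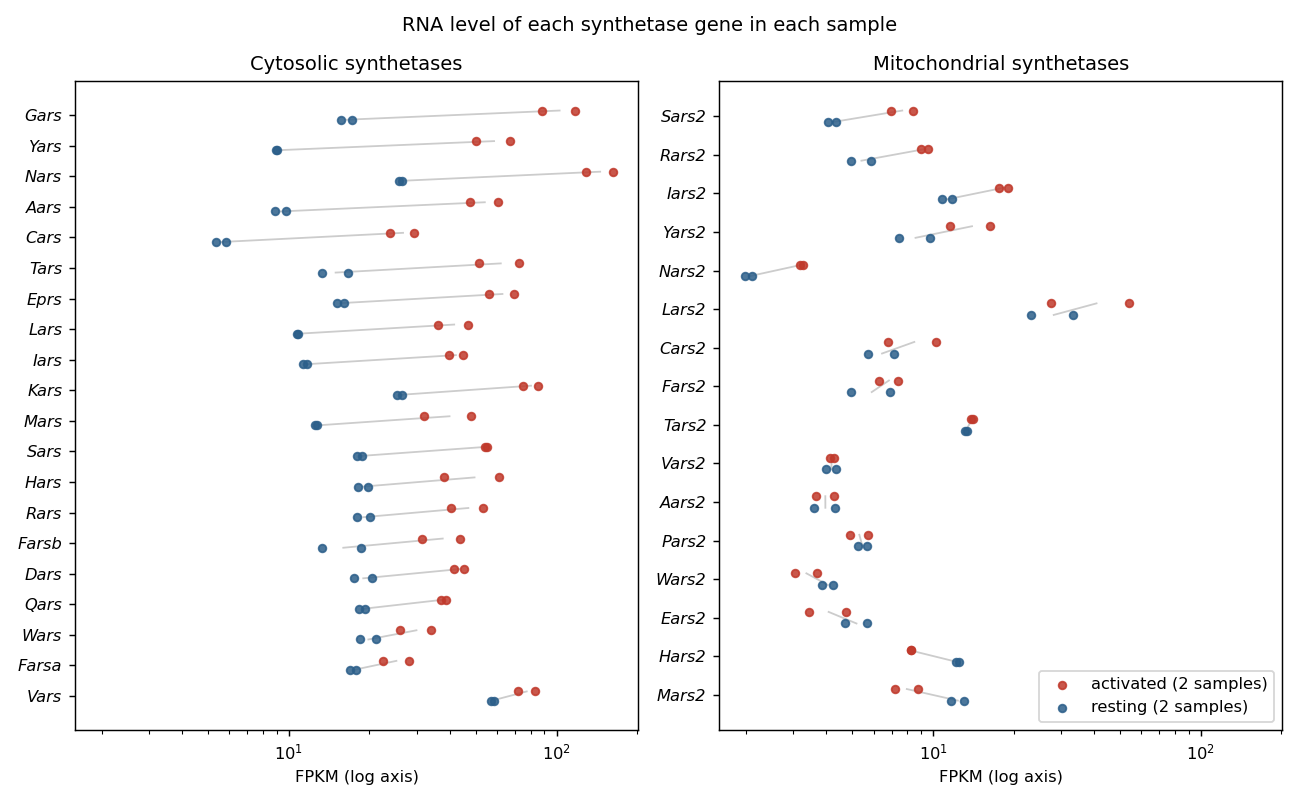
RNA level in FPKM (log axis) of each synthetase gene in each of 2 activated (red, upper) and 2 resting (blue, lower) samples, with grey lines joining the group means. In all 20 cytosolic genes both activated samples lie above both resting samples, from Gars at the top to Vars at the bottom. The groups overlap in 7 of 16 mitochondrial genes, against 2105 of all 10863 tested genes.

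The mitochondrial synthetases were lower in level and mixed in direction. Their median mean level was 7.83 FPKM in activated and 5.68 FPKM in resting cells, against 48.1 FPKM in activated and 16.9 FPKM in resting cells for the cytosolic genes; FPKM is scaled to transcript length. Of 16 genes 5 were called higher (Sars2, Rars2, Iars2, Yars2 and Nars2), 2 lower (Hars2 and Mars2) and 9 were not called, shares near or under the 28.2% and 26.2% of all tested genes. None reached 2-fold. The median log2 difference was 0.14, with a range of -0.58 to 0.73. Without resting replicate 1, 1 gene (Rars2) was called higher and 0 lower, and without resting replicate 2, 0 were called in either direction. The differences stayed close to those of all samples: without resting replicate 1 and without resting replicate 2 they were 0.77 and 0.69 for Sars2, 0.71 and 0.60 for Iars2, and -0.54 and -0.51 for Hars2. Calls over all tested genes were also fewer, 1735 higher and 1229 lower without resting replicate 1 and 2133 higher and 1191 lower without resting replicate 2, against 3066 higher and 2844 lower with all samples. Without activated replicate 1, 5 mitochondrial genes were called higher and 1 lower.

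Sars2, for serine, had 6.94 and 8.41 FPKM in activated samples and 4.36 and 4.06 FPKM in resting samples (log2 difference 0.73 ± 0.16, limma adjusted p = 0.00958). Rars2, for arginine, had 9.59 and 9.02 FPKM in activated against 5.85 and 4.96 FPKM in resting samples (log2 difference 0.69 ± 0.15, limma adjusted p = 0.00979). Iars2, for isoleucine, had 17.7 and 19.1 FPKM in activated and 11.8 and 10.8 FPKM in resting samples, with a log2 difference of 0.66 ± 0.15 (limma adjusted p = 0.00954). In these 3 genes the groups were apart with close replicates. Yars2, for tyrosine, had 11.6 and 16.3 FPKM in activated samples, which differed more, and 7.44 and 9.76 FPKM in resting samples (log2 difference 0.63 ± 0.21, limma adjusted p = 0.0404). Nars2, for asparagine, had the lowest level of the 36 genes in both groups, at 3.19 and 3.27 FPKM in activated samples and 2.12 and 1.98 FPKM in resting samples (log2 difference 0.47 ± 0.16, limma adjusted p = 0.0394).

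Mars2 and Hars2 were lower in activated cells. Mars2, for methionine, had 7.19 and 8.78 FPKM in activated samples and 13.1 and 11.7 FPKM in resting samples (log2 difference -0.58 ± 0.16, limma adjusted p = 0.0223). Hars2, for histidine, had 8.24 and 8.25 FPKM in activated samples, against 12.2 and 12.5 FPKM in resting samples (log2 difference -0.53 ± 0.14, limma adjusted p = 0.0184). Hars2 lies 74 bases from its cytosolic counterpart Hars on chromosome 18, and the 2 neighbours were called in opposite directions, Hars at 38.0 and 60.8 FPKM in activated and 18.1 and 19.7 FPKM in resting samples.

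The other 9 mitochondrial genes were not called. Lars2, for leucine, was the most abundant mitochondrial member and the most variable, with 54.0 and 27.5 FPKM in activated and 23.2 and 33.2 FPKM in resting samples. Its groups overlapped (log2 difference 0.46 ± 0.33, limma adjusted p = 0.273), and the difference was -0.013 without activated replicate 1 and 0.93 without activated replicate 2 (limma adjusted p = 0.967 and 0.0285, the spread taken from the resting samples alone). Cars2, for cysteine, had 6.77 and 10.3 FPKM in activated against 5.74 and 7.16 FPKM in resting samples (log2 difference 0.33 ± 0.22), with 0.60 without activated replicate 1 and 0.067 without activated replicate 2 (limma adjusted p = 0.0360 and 0.787, with the same limit). Fars2 (phenylalanine) had 7.39 and 6.30 FPKM in activated and 4.93 and 6.88 FPKM in resting samples. In all 3 genes the groups overlapped.

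Tars2, for threonine, had 13.9 and 14.2 FPKM in activated samples and 13.4 and 13.1 FPKM in resting samples, with a log2 difference of 0.08 ± 0.14. Vars2 (valine) had 4.13 and 4.28 FPKM in activated and 3.98 and 4.33 FPKM in resting samples, and Aars2 (alanine) had 3.65 and 4.27 FPKM in activated and 3.61 and 4.32 FPKM in resting samples, a log2 difference of 0.00 ± 0.17. Tars2 was the one of these 3 whose groups did not overlap. Pars2 (proline) had 4.91 and 5.70 FPKM in activated and 5.24 and 5.66 FPKM in resting samples. Wars2 (tryptophan) had 3.68 and 3.05 FPKM in activated and 4.24 and 3.86 FPKM in resting samples, and Ears2 (glutamate) had 4.71 and 3.44 FPKM in activated and 5.65 and 4.71 FPKM in resting samples. Limma adjusted p-values of these 6 genes ran from 0.234 for Ears2 to 0.999 for Aars2, which does not show that the levels were equal.

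**Figure D2:**
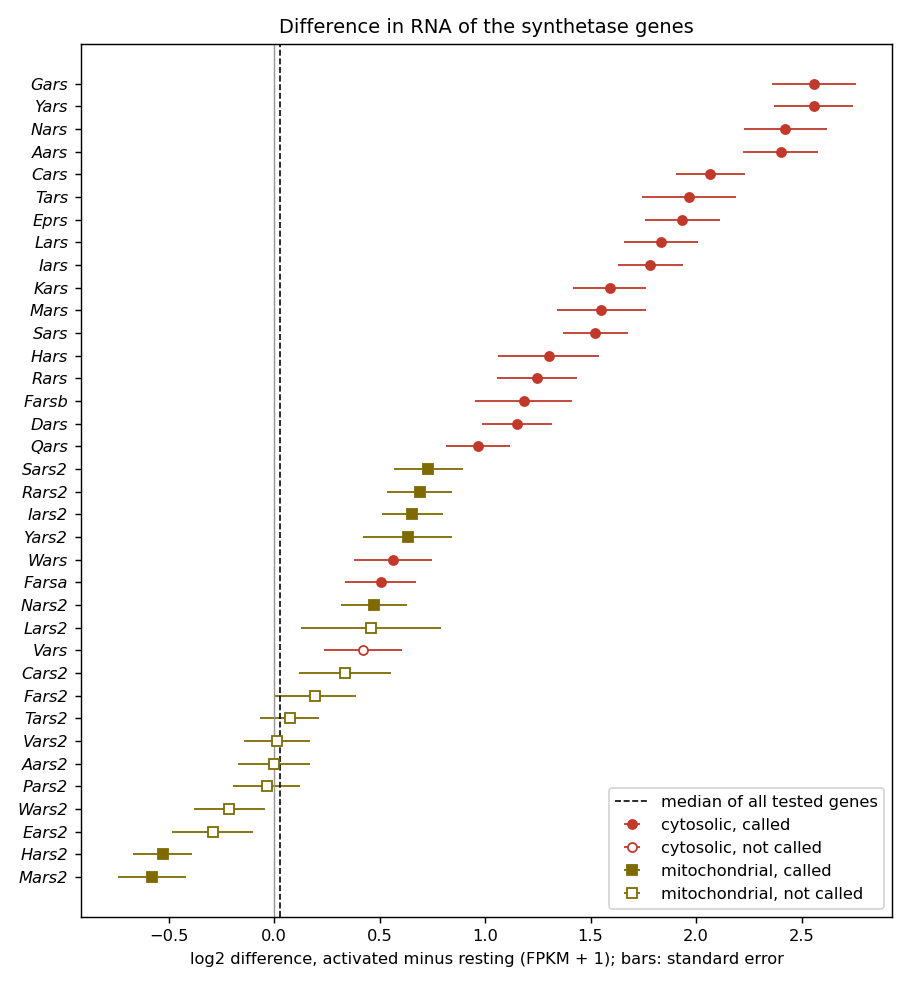
Log2 difference of FPKM + 1, activated minus resting, with its standard error, for the 36 genes in order of size; filled symbols passed limma at an adjusted p under 0.05. The 17 genes with the largest differences are all cytosolic, and the dashed line at 0.03 is the median of all 10863 tested genes.

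The comparison of the 2 compartments was made within samples. The cytosolic sum was 5.92 and 8.17 times the mitochondrial sum in activated samples, and 2.78 and 2.68 times in resting samples. The mitochondrial sum was 167.6 and 152.2 FPKM in activated and 126.8 and 139.0 FPKM in resting samples. For 13 amino acids the list held a cytosolic gene and a mitochondrial gene of the same symbol with a 2 added. Phenylalanine (Farsa and Farsb with Fars2), glutamate (Eprs with Ears2) and proline (Eprs with Pars2) were covered under differing symbols. Their genes were not paired. In all 13 pairs the cytosolic to mitochondrial ratio was higher in both activated samples than in both resting samples. No such share was computed over other gene pairs, and the ratios restate the values of the single genes given above. With 2 samples against 2, an exact two-sided permutation test cannot go below a p of 0.333, so no test of a single ratio was made.

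The alanine pair differed most. The Aars to Aars2 ratio was 13.0 and 14.1 in activated samples and 2.71 and 2.06 in resting samples, a difference between their log2 changes of 2.40. The Mars to Mars2 ratio, with the genes called in opposite directions, was 4.44 and 5.44 in activated and 0.959 and 1.10 in resting samples. The Nars to Nars2 ratio was 40.4 and 49.5 in activated samples, the highest of the 13 pairs there, and 12.2 and 13.4 in resting samples. The Vars to Vars2 pair moved least, with ratios of 17.3 and 19.4 in activated and 14.6 and 13.1 in resting samples, and a difference of 0.41. The Lars to Lars2 ratio was 0.670 and 1.70 in activated and 0.467 and 0.324 in resting samples, which makes leucine the one pair whose mitochondrial gene had the higher level in a sample of activated cells. The median difference between the log2 changes over the 13 pairs was 1.73.

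**Figure D3:**
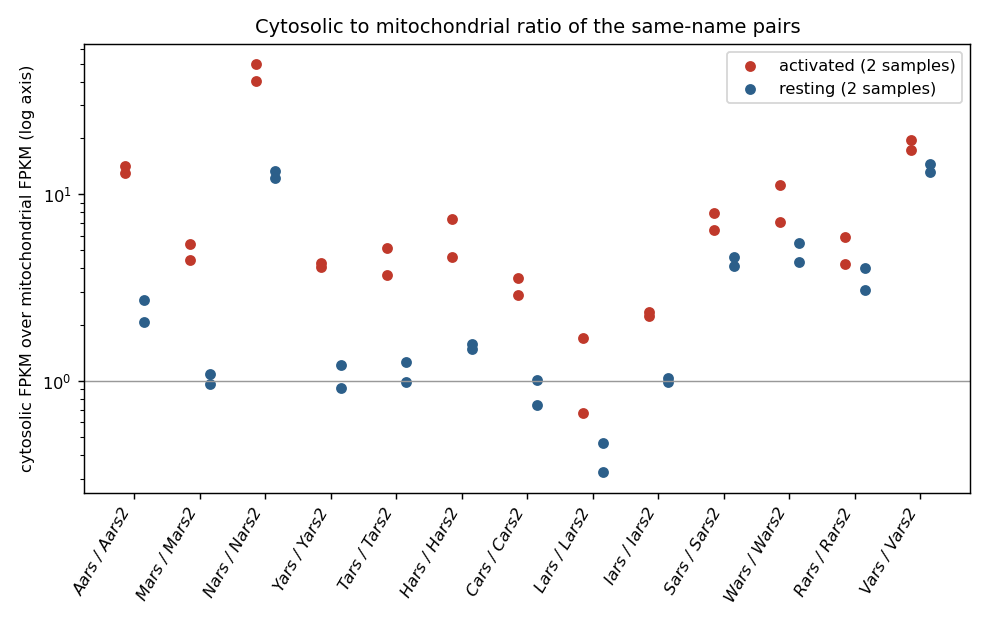
Ratio of cytosolic to mitochondrial FPKM (log axis) for 13 pairs of genes for the same amino acid, in 2 activated (red, left) and 2 resting (blue, right) samples. The activated points lie above the resting points in every pair, and no such share was computed over other gene pairs. The difference between log2 changes was largest for Aars and Aars2 and smallest for Vars and Vars2. The points came closest for Rars and Rars2, at 4.22 in an activated and 4.05 in a resting sample.

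Among the cytosolic genes the enzymes of the multisynthetase complex had differences within the range of the free enzymes. All 8 (Eprs, Iars, Lars, Mars, Kars, Rars, Dars and Qars) were called higher, with a median log2 difference of 1.57. Of the 12 genes of free enzymes, Farsa and Farsb among them, 11 were called higher, with a median of 1.74. Among all tested genes 28.2% were called higher. Differences between these groups of enzymes, and between those that follow, were not tested. The free enzymes held both the largest and the smallest differences. Split by fold of the catalytic domain, 9 of 10 class I genes and 10 of 10 class II genes were called higher, with medians of 1.67 and 1.56. Eprs, fused for glutamate and proline, was counted in class I alone, and the chains Farsa and Farsb as separate genes of class II. Of 12 cytosolic genes often listed as Atf4 targets all 12 were called higher with a median of 1.95, and of the other 8, 7 were called with a median of 1.17. Wars, on the Atf4 list, stood at 0.56 and Kars, off it, at 1.59, so the ranges of the groups overlapped.

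Partners of the synthetases were measured from lists of related genes. The 3 scaffold genes of the multisynthetase complex were all called higher: Aimp2 had 22.7 and 36.01 FPKM in activated and 11.9 and 14.0 FPKM in resting samples (log2 difference 1.09), and Aimp1 and Eef1e1 had log2 differences of 0.88 and 0.84. Of 9 other genes of tRNA charging 2 were called higher and 0 lower, against 28.2% and 26.2% of all tested genes. Xpot, which exports tRNA from the nucleus, had 19.5 and 22.5 FPKM in activated and 6.41 and 7.25 FPKM in resting samples (log2 difference 1.49). Aarsd1, related to the editing domain of alanyl-tRNA synthetase, had a log2 difference of 1.03. Not called were Qrsl1, Pet112 and Gatc, the subunits of the mitochondrial glutamyl-tRNA amidotransferase (log2 differences 0.43, 0.14 and -0.19), Sepsecs and Pstk, which make selenocysteinyl-tRNA (0.34 and -0.07), Dtd1, which removes D-amino acids from tRNA (0.18), and Ptrh2 (0.24).

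Elongation factors were read in the same way, against the 28.2% of all tested genes called higher and the 26.2% called lower. All 5 cytosolic factors were called higher: Eef1g and Eef1b2 had log2 differences of 1.21 and 1.20, Eef2, the translocase, 1.14, Eef1a1, which carries charged tRNA to the ribosome, 0.82, and Eef1d 0.68. Eef1a1 was the most abundant of the 5, at 1509 and 1369 FPKM in activated and 750.4 and 877.0 FPKM in resting samples, and genes of this kind have many processed copies that can share reads. Of 6 mitochondrial translation factors Gfm1 (1.29), Tsfm (1.12) and Tufm (0.88) were called higher, Mtif3 was called lower (-0.53), and Mtif2 (0.27) and Gfm2 (0.19) were not called.

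Genes of amino acid supply and of the stress response that Atf4 takes part in included larger differences than any synthetase. Of 18 genes 16 passed the filter, 3 of them (Asns, Chac1 and Trib3) through the activated samples alone, so that no count is read from these. Of the other 13, 12 were called higher and 0 lower, where 28.2% of all tested genes were called higher. Asns, asparagine synthetase, had 77.8 and 85.8 FPKM in activated samples, against 0.325 and 0.699 FPKM in resting samples (log2 difference 5.78). Chac1, which degrades glutathione, had 27.3 and 34.4 FPKM in activated and 0.0815 and 0.125 FPKM in resting samples (4.84). Slc7a5, a carrier of large neutral amino acids, and Psat1, of serine synthesis, had 3.92 and 3.83. Atf4 itself had 313.8 and 378.2 FPKM in activated and 147.5 and 130.0 FPKM in resting samples (1.31). Ppp1r15a, which restores translation after stress, was not called, with 32.5 and 21.3 FPKM in activated and 22.4 and 15.1 FPKM in resting samples, and Slc7a11 and Vldlr were below the filter, with means of 0.734 and 0.470 FPKM in activated cells and 0.125 and 0.00719 FPKM in resting cells. Myc, a regulator of growth and translation genes, had 55.3 and 59.4 FPKM in activated and 32.7 and 26.2 FPKM in resting samples, a log2 difference of 0.94 ± 0.18 (limma adjusted p = 0.00560).

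Chromatin at the synthetase loci was read from lists of peaks of activated cells, which hold positions and no score, so no comparison with resting cells was made. FAIRE-seq marks open DNA, H3K4me3 marks active promoters, H3K27ac marks active promoters and enhancers, and STARR-seq marks fragments that drive a reporter. Both ends of each gene were searched, since the table gives no strand. A FAIRE peak lay within 1 kb of a gene end in all 20 cytosolic and in 15 of 16 mitochondrial genes, and the same counts held for H3K27ac and for H3K4me3. Among the 10242 genes with a mean of at least 1 FPKM in activated cells the shares were 90.7% for FAIRE, 88.7% for H3K27ac and 90.8% for H3K4me3. The exception was Sars2, where no peak of any of these lists lay within 1 kb of an end and the nearest FAIRE peak was centred 9023 bases away.

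STARR peaks lay within 1 kb of an end in 18 of 20 cytosolic and 12 of 16 mitochondrial genes. Over the 36 genes this was 83.3%, against 53.1% of genes with at least 1 FPKM in activated cells and 26.3% of all entries of the table; the genes were not matched on level. In 29 of these 30 the STARR peak lay in a FAIRE peak, the exception being Yars2. Farsa, Gars, Cars2, Ears2, Rars2 and Sars2 had none at an end. For Gars, the gene with the largest difference in RNA, the nearest STARR peak was 221.5 kb away at chr6:54766387-54766686 on mm9, at an end of Znrf2. For Farsa and Cars2 it was 2.87 and 4.59 kb away.

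The promoter marks were broad at Vars and narrow at some mitochondrial genes. The widest H3K4me3 peak at an end had a median of 2301 bases in the cytosolic and 1584 bases in the 15 marked mitochondrial genes, against 2011 bases over genes with at least 1 FPKM. For H3K27ac the medians were 1781 and 1663 bases, against 1597 bases. Vars had the widest of both, 5059 bases of H3K4me3 and 6511 bases of H3K27ac, and was the one gene of the 36 with a super-enhancer, a long domain of H3K27ac, in or within 10 kb of it, at chr17:35135481-35140922 on mm9. This is also the gene with the highest resting RNA level and the smallest cytosolic difference. Aars2 had the narrowest H3K4me3 peak, of 626 bases. Peak width depends on the depth of the library and on the calling, which the lists do not give.

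**Figure D4:**
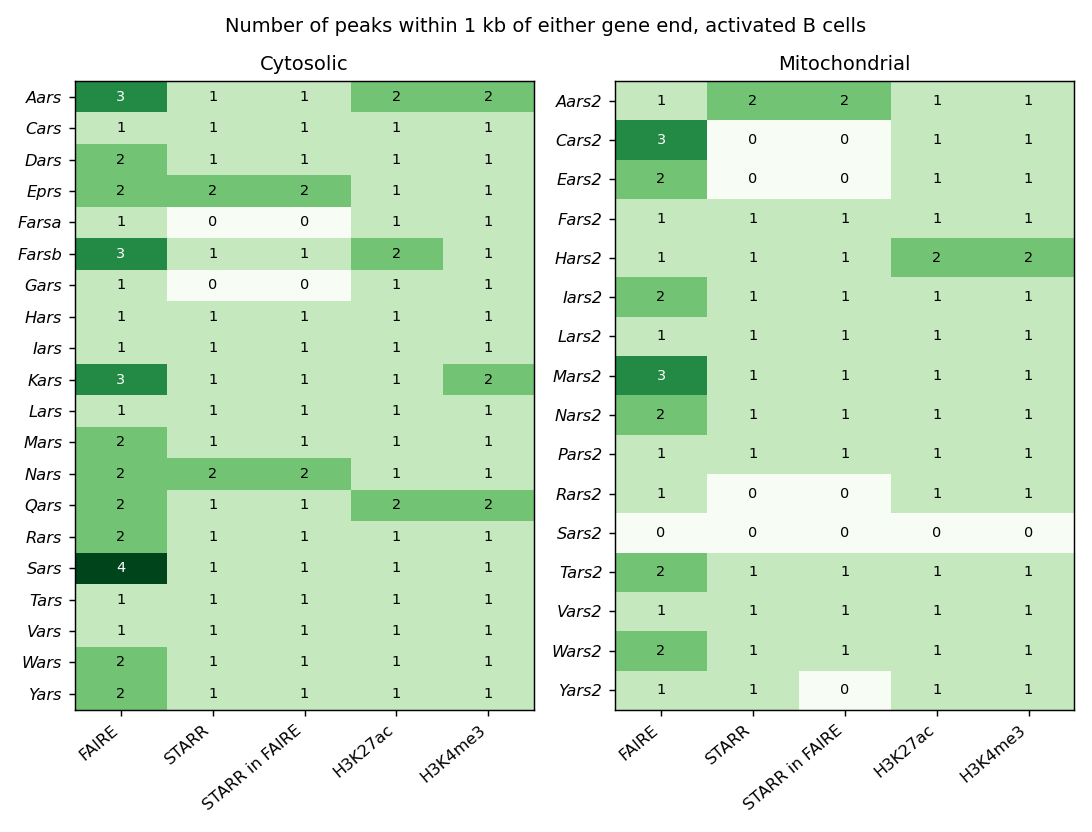
Number of peaks (colour and digits) of each list within 1 kb of either end of each synthetase gene, in activated cells; cytosolic genes are on the left. Sars2 has 0 in every list, and Farsa, Gars, Cars2, Ears2 and Rars2 have 0 STARR peaks.

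Several gene ends lie beside those of a neighbour, and peaks there cannot be given to one gene. Of the 36 genes 16 have another gene's end within 1 kb of their own, and 4 of them (Aars, Mars, Yars and Iars2) overlap that gene. Mars overlaps by 69 bases with Ddit3, a stress response factor that had 34.4 and 25.9 FPKM in activated and 17.8 and 20.1 FPKM in resting samples and was called higher like Mars. Sars2 lies 186 bases from Mrps12, a mitochondrial ribosomal protein gene with 41.4 and 61.8 FPKM in activated and 19.9 and 25.7 FPKM in resting samples, also called higher. Kars lies 53 bases from Terf2ip, which was not called (8.37 and 6.66 FPKM in activated, 10.1 and 8.81 FPKM in resting samples), and Iars2 overlaps by 86 bases with Rab3gap2, which had a log2 difference of 0.00. Exosc6, which overlaps Aars, was not called either (log2 difference 0.35). Yars overlaps by 31 bases with C77080, which did not pass the filter, at 0.786 and 1.26 FPKM in activated and 0.307 and 0.351 FPKM in resting samples. S100pbp, 312 bases from the other end of Yars, was not called (0.15). Tars2 was not called and lies 404 bases from Ecm1, which was called lower (-1.03). Without strand in the table, reads of such overlapping or adjacent genes could be assigned to either.

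Contacts of the synthetase loci came from a Hi-C list of 27903 distinct contacts in activated cells, already restricted by the authors to enhancers and promoters, with at least 5 reads and a z-score of at least 3. The list is named under all Hi-C runs of both replicates and repeats some contacts at several anchor widths, from 500 to 5000 bases. All 20 cytosolic genes and 14 of 16 mitochondrial genes had a listed contact with an anchor within 1 kb of an end, against 82.7% of genes with at least 1 FPKM in activated cells. Lars2 and Nars2 had none. The median was 8 contacts per cytosolic gene and 3.5 per mitochondrial gene, against 4 over genes with at least 1 FPKM. As for the STARR peaks, the genes were not matched on RNA level.

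Hars2 had the most contacts, 24, followed by Mars with 20, Hars with 17, Vars with 16 and Lars with 15. All 17 contacts of Hars are also contacts of Hars2, since their facing ends share the anchors. Gars had 2 contacts, one of them with the region 220.3 kb away at the Znrf2 end, with 8 reads and a z-score of 3.96, and that region holds the STARR peak that is the nearest to Gars. The contact of Mars with the most reads, 15, led to a region at Dtx3 115.7 kb away. The highest read count of Aars, 289, was between 2 overlapping anchors whose centres lie 2.286 kb apart, beside Ddx19b.

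A few synthetase genes were listed in contact with each other. The ends of Eprs and Iars2 on chromosome 1 were in contact over 29.56 kb, with 28 reads and a z-score of 3.53. Lars was in contact with the shared end of Hars and Hars2 over 5475 kb with 7 reads and a z-score of 13.1. Sars had a single contact, over 11895 kb, with 5 reads and a z-score of 15.2. Leaving out contacts of 3 Mb or more, 19 of 20 cytosolic genes, all but Sars, and 14 of 16 mitochondrial genes kept a contact.

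Merged where anchors overlapped, the contacts led to 215 partner regions, counted once for each gene. Where both anchors of a contact lay at the same gene, each was counted as a partner. Some regions therefore hold the gene's own end and its peaks, as for Aars, Qars, Lars, Cars2 and Hars2. Of the 215 regions 161 (74.9%) held a STARR peak, 192 a FAIRE peak, 179 an H3K27ac peak and 165 the end of another gene. The share with a STARR peak was 74.7% for cytosolic and 75.4% for mitochondrial genes. Because the list was restricted to enhancers and promoters, these shares describe the list as much as the genes.

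**Figure D5:**
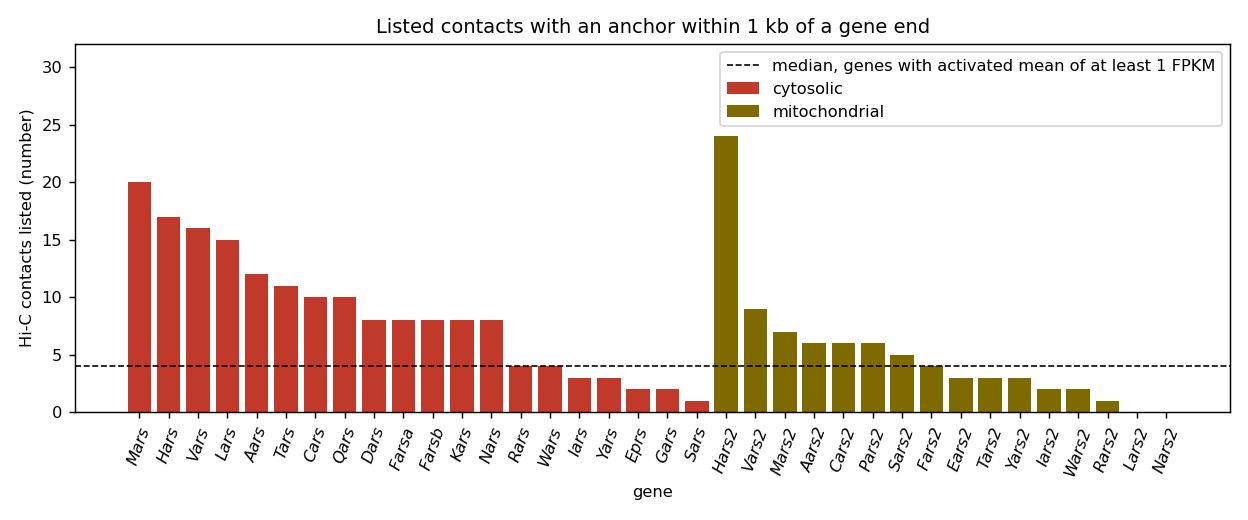
Number of listed Hi-C contacts with an anchor within 1 kb of either gene end, for cytosolic (red) and mitochondrial (brown) synthetase genes, in activated cells. Hars2 has 24 and Mars 20, and Lars2 and Nars2 have 0. The dashed line at 4 is the median of genes with at least 1 FPKM, not matched on level.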

How the data were processed

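The H3K4me1, nascent RNA and resting ChIP-seq data were not used here. Per the submitters' processing notes, TopHat2, STAR, HOMER, Bowtie, Bowtie2 and bedtools were used on the build mm9, without stated roles or versions. The authors deposited 1 value per gene and RNA sample, made from the reads by steps that the headers do not name, and these were treated as FPKM, because they are not whole and sum differently in each sample. The depth is unknown. The peak lists were deposited by the authors as positions, those of FAIRE-seq and STARR-seq called with HOMER per the series design text; thresholds and pooling are not given in the sources used here. The Hi-C list was filtered by the authors and gives, per the file headers, a read count and a z-score per contact. The count and the score were used as deposited by the authors.

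Testing used limma 3.58.1 under R 4.3.3, with its trend and robust settings, on log2(FPKM + 1) of genes reaching 1 FPKM in 2 or more samples, 2 activated against 2 resting samples, without a block, with Benjamini-Hochberg adjustment over all 10863 tested genes and a threshold of 0.05. Fold changes on this scale understate those of low genes. The code was tested on simulated data. Peaks, contacts and motifs were counted with Python 3.11.15. The members and lists were chosen with earlier results of these data known, and some related genes are not reported here. Full values are given for the 6 cytosolic and 4 mitochondrial genes with the largest called change, every member lower or not called and the pair with the largest difference, and from related lists for up to 4 called genes and those not called or against the majority; Wars, Farsa, Nars2, Atf4 and other pairs and neighbours were added after their values were seen. Emr1, Pet112 and Igj are older symbols. Alternatives covered the pseudocount, filters, scaling, block, limma options, each replicate and windows.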

Additional observations from a re-analysis of the deposited data

How the results depend on the processing

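The 19 cytosolic genes called higher were 17 to 19 with each replicate left out, and no called member reversed under any of the 11 RNA alternatives. Scaling to a common upper quartile moved the median log2 difference of all tested genes by over 0.1, to -0.0904 against 0.0302 as deposited; the medians were then 1.44 for cytosolic and 0.0126 for mitochondrial genes. Quantile normalisation gave -0.0235 for all genes. With a mean of at least 5 FPKM, 31 of the 36 genes were tested: the mitochondrial median was 0.33, that of all genes 0.10, and 1852 genes in all and 0 of the related lists were called lower, as fewer genes enter. Leaving out 1 replicate, the ranges were 0 to 5 mitochondrial genes called higher and 0 to 2 lower, 20 to 25 related genes (scaffold, tRNA charging, elongation factors, stress and Myc) higher and 0 to 1 lower, against 29 and 1 with all samples, 1735 to 2859 of all genes higher and 1191 to 2834 lower, and -0.0147 to 0.126 for the median of all genes. The 29 related genes called higher with all samples include Asns, Chac1 and Trib3, which passed the filter through the activated samples alone. Nothing is read from their part of that count. With the replicate number as a block, 19 cytosolic and 4 mitochondrial genes were called higher (Nars2 lost its call), with 3317 of all genes higher. The deviations of same-numbered samples correlated at 0.124, and 2 pairs do not show that the numbers pair the samples. Over single genes and alternatives, 357 values kept their side of the threshold, 32 lost it (most often Farsa and Nars2, 6 each) and 2 gained it. With z-scores at or above the median of 4.19, the median number of contacts was 4 per cytosolic and 1.5 per mitochondrial gene. Before the gene start alone, 3 cytosolic promoters held TGATGNAA and 0 mitochondrial ones CACGTG. The other peak and contact counts stayed within 1.5 times under every window and filter tried. The unknown depth and 2 samples per group limit the precision of the low mitochondrial genes.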
